A study of Homo sapiens with 16 samples.

Results

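VEGFA and 6 other genes of the hypoxia response (ADM, EGLN1, EGLN3, BNIP3, NDRG1 and HIF1A) were followed in 16 RNA-seq libraries of the human embryonic stem cell line H1. They were taken by gene symbol and are 7 of the 17738 genes in the deposited table, and all 7 passed the filter that left 16714 genes for testing. With 2-deoxyglucose (2DG), a glucose analog that hexokinase phosphorylates and glycolysis cannot use further, VEGFA was 2.49-fold to 3.58-fold higher in each of 4 media. The VEGFA call in NODAL medium was lost when a library of either group was left out. Of the other 6 genes, BNIP3 was lower with 2DG in E7 medium, a call that several left-out libraries ended. The remaining 5 did not pass the main test for 2DG in any medium, though ADM, EGLN1, NDRG1 and HIF1A did so under some alternatives.

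The wild-type cells spent 24 h in E7, which is E8 medium lacking TGFb, and each of 8 groups had 2 libraries of poly(A) RNA. The groups were E7+2DG and E7, E7+TGFb+2DG and E7+TGFb, E7+ActivinA+2DG and E7+ActivinA, and E7+NODAL+2DG and E7+NODAL. The concentrations were 3 mM for 2DG, 1.74 ng/mL for TGFb, 100 ng/mL for Activin A and 100 ng/mL for NODAL. Whether 2 replicates came from separate cultures is not in the labels, so p-values here measure only the spread between samples, which may be technical.

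The libraries held 14600479 to 17630329 reads each. All 10 pluripotency markers were measured, with a summed level of 124394.7 to 155237.3 normalised reads per library, whereas 5 of 8 endothelial markers summed to 75.4 to 173.1 and the defining markers PECAM1, CDH5 and EMCN were not analysed here. The 5 of 10 fibroblast markers measured summed to 3359.2 to 5315.6, most of it THY1, and COL3A1, DCN, LUM, FAP and POSTN were not analysed here. Among them the collagen gene COL6A3 was higher with 2DG, at 299 ± 12.8 normalised reads in E7+2DG and 29.2 ± 19.7 in E7 (SD, n = 2; limma log2 fold change 3.49, adjusted p = 0.00057), by 2.86 in TGFb medium and 2.17 in Activin A medium, with 1.07 in NODAL medium (adjusted p = 0.22). THY1 was lower in E7 (-0.47, adjusted p = 0.027) and TGFb medium (-0.51, adjusted p = 0.04). In NODAL medium 1 of the 5 measured genes fell and 0 rose, beside 5.88% of all genes called. Whether these genes mark fibroblasts in this line, and the part of such cells in the VEGFA values, was not tested. In units of counting error, replicates differed most in E7+ActivinA+2DG for VEGFA, ADM and NDRG1, and in E7+ActivinA for EGLN3, BNIP3 and HIF1A, so results are also given without these libraries where a call turned on them. In bulk RNA, fewer cells of a type and less RNA per cell cannot be told apart.

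Hypoxia-inducible factor (HIF) is a pair of an oxygen-regulated alpha subunit, such as HIF1A, and the stable partner ARNT. With oxygen, prolyl hydroxylases (EGLN1, EGLN3) mark the alpha subunit for destruction through the VHL ubiquitin ligase. Without it, HIF binds DNA at a short core sequence and raises VEGFA, ADM, BNIP3 and NDRG1, and also the hydroxylase genes, which closes a feedback loop. VEGFA is also known as a target of ATF4, the transcription factor of amino acid and endoplasmic reticulum stress, in other cell types. Human pluripotent cells rely strongly on glycolysis, and many glycolytic genes are HIF targets too.

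The HIF core letters (ACGTG or GCGTG on either strand) were searched in the 250 bases before each RefSeq gene start, on build GRCh38.p14, because they are the feature by which HIF targets are commonly recognised. The search covered 6 windows of 5 of the 7 genes, and windows of VEGFA and NDRG1 were not used here. Capitals below mark the core letters, and each sequence reads 5′ to 3′ on the strand of its gene.
BNIP3: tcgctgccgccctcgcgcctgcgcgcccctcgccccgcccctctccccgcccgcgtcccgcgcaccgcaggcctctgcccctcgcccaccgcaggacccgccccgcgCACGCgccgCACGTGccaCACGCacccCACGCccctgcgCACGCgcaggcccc
EGLN1: ccgcggggccgtggtgtACGTGcagagcgc
ADM: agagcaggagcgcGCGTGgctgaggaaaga
HIF1A: ttggctgagagcgGCGTGggctggggtggg
The BNIP3 stretch is chr10:131982014-131982173 on the minus strand, which ends at the base before the annotated start of BNIP3. It holds GCGTG 4 times on the opposite strand (printed as CACGC) and the palindrome CACGTG, which counts as ACGTG once on each strand, the 2 matches overlapping. The EGLN1 stretch is chr1:231422288-231422317 on the minus strand, with ACGTG starting 13 bases before the RefSeq start. The ADM stretch is chr11:10304959-10304988 on the plus strand, with GCGTG starting 101 bases before it, and both the EGLN1 and the ADM windows lie within exons of longer GENCODE 29 transcripts of the same gene. The HIF1A stretch is chr14:61695296-61695325 on the plus strand and lies outside annotated exons, and the EGLN3 window and the second HIF1A window held neither core. Of 35116 RefSeq windows, 18.5% held ACGTG, 32.2% held GCGTG and 43.2% held at least 1 of them. A match describes letters only, not a site in use.

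Compared per kilobase of exonic length, HIF1A had the highest level of the 7, with a median of 952.6 normalised reads per kilobase over the 16 libraries. It was followed by BNIP3 with 282.5, ADM with 179.7, EGLN1 with 71.8, VEGFA with 55.2, EGLN3 with 38.2 and NDRG1 with 6.1 normalised reads per kilobase. The VEGFA level ran between 22.4 and 148.5 normalised reads per kilobase, the widest span in proportion to its lowest value. The values that follow are normalised reads per gene, not per length.

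**Figure D1:**
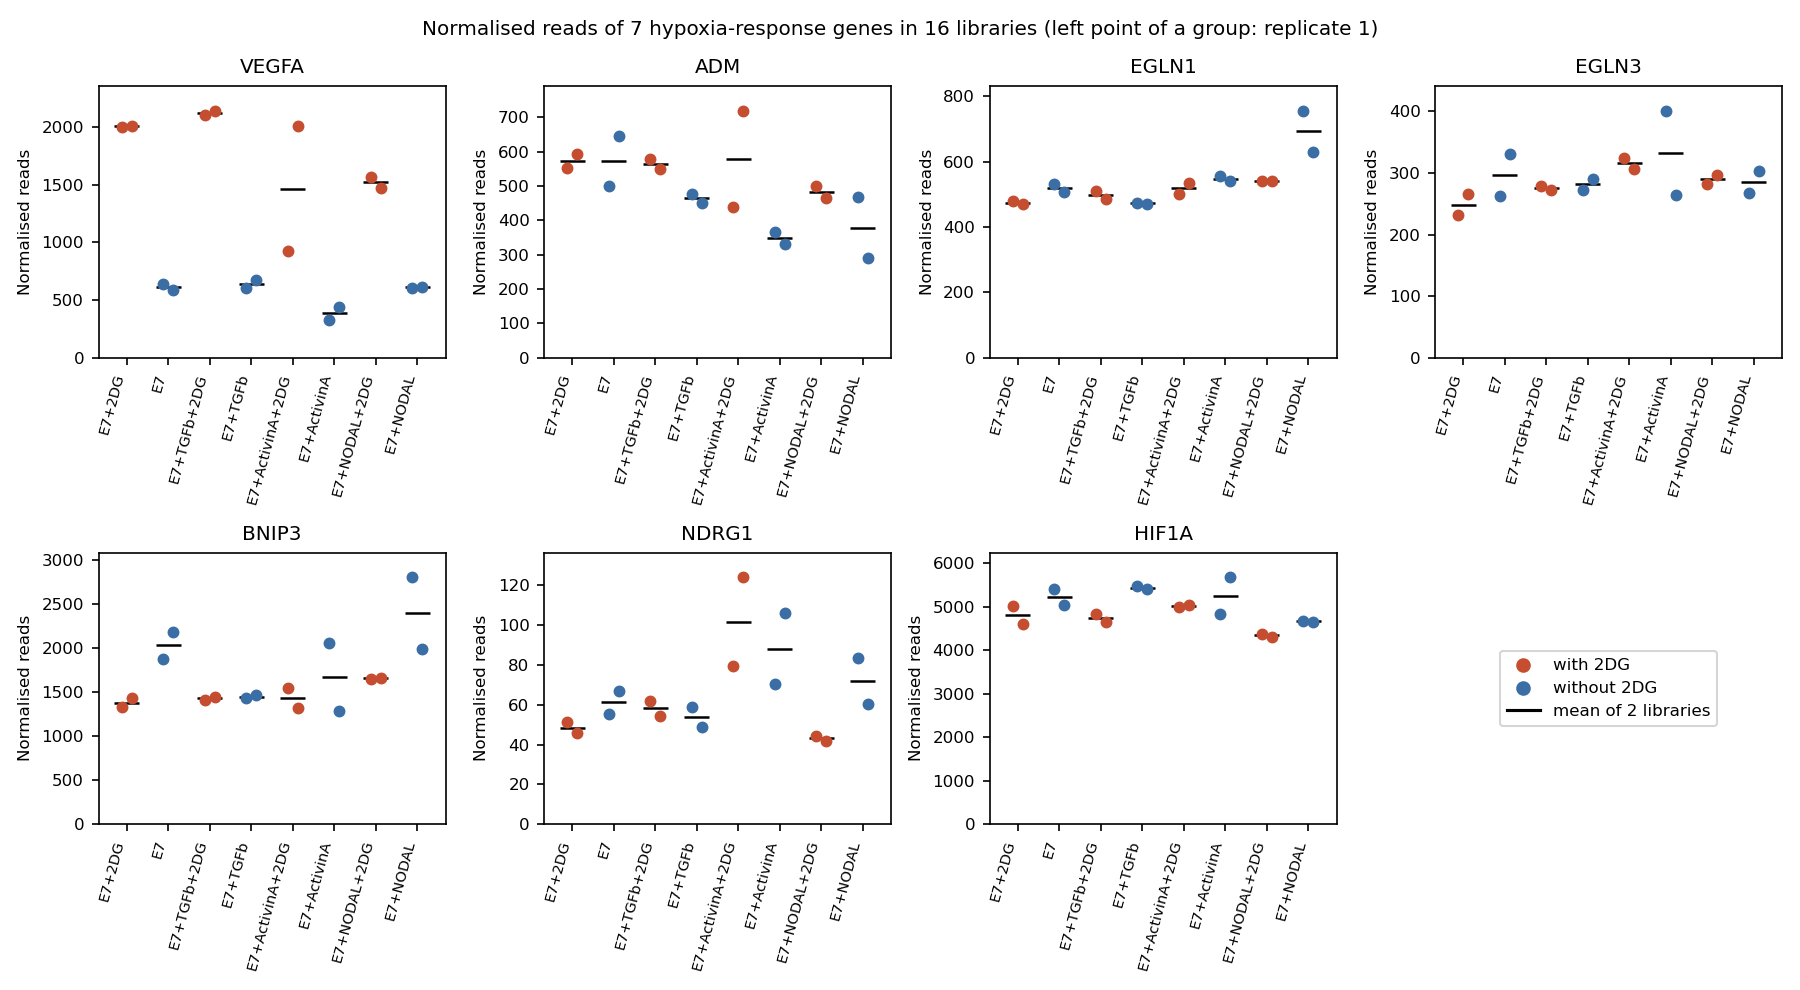
Normalised reads (vertical axis, starting at 0) of each of the 7 genes in the 16 libraries, with 2DG libraries in red, the others in blue and a bar at the mean of 2 libraries. VEGFA spans 922 to 2143 in the 8 libraries with 2DG and 324 to 672 in the 8 without it, while in the other 6 genes the red and blue points overlap in range.

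VEGFA lies on chromosome 6 at 43770184 to 43786487 on the plus strand (hg38, GENCODE 29) and encodes a secreted growth factor for blood vessels. It had 2005 and 2009 normalised reads in E7+2DG, against 643 and 588 in E7. It had 2104 and 2143 in E7+TGFb+2DG, against 605 and 672 in E7+TGFb. In both media every library with 2DG was above every library without it, and replicates with 2DG lay within counting error of each other. VEGFA had 922 and 2006 normalised reads in E7+ActivinA+2DG, against 324 and 444 in E7+ActivinA. It had 1568 and 1476 in E7+NODAL+2DG, against 605 and 617 in E7+NODAL. Across all media the lowest 2DG library, replicate 1 of E7+ActivinA+2DG, was still above the highest library without 2DG.

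The fitted change was a log2 fold change of 1.70 in E7 (SE 0.25, limma with Benjamini-Hochberg adjusted p = 0.00066), which is 3.26-fold. In TGFb medium it was 1.73 (adjusted p = 0.001), in Activin A medium 1.84 (adjusted p = 0.0038) and in NODAL medium 1.31 (adjusted p = 0.0081). The NODAL call was lost without either replicate of E7+NODAL+2DG (adjusted p = 0.095 without replicate 1 and 0.063 without replicate 2) or of E7+NODAL (adjusted p = 0.068 and 0.074), with log2 fold changes of 1.27 to 1.36. In Activin A medium the log2 fold change was 2.40 without replicate 1 of E7+ActivinA+2DG and 1.28 without its replicate 2, and the call was kept. Those 2 libraries differed by 1.12 on the log2 scale for VEGFA, 20 times the counting error of that difference. Across 16335 genes, log2 fold change and exonic length had a Spearman's rho of 0.31 for 2DG in E7, 0.01 in TGFb medium, 0.32 in Activin A medium and -0.11 in NODAL medium. The part of length in the VEGFA values was not tested.

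Whether 2DG acted on VEGFA to the same extent with and without a ligand was tested as an interaction, the log2 response in the ligand medium less that in E7. It was 0.03 with TGFb (95% interval -0.72 to 0.78), 0.13 with Activin A (-0.62 to 0.89) and -0.39 with NODAL (-1.14 to 0.36), and none passed the test (adjusted p = 0.98, 0.92 and 0.51). The intervals are wide beside the estimates, so equal responses are not shown. Without the 4 Activin A libraries the NODAL term of -0.39 passed it (adjusted p = 0.011). The 3 terms share the E7+2DG and E7 libraries.

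In the order of mean VEGFA level, E7+TGFb+2DG stood first, E7+2DG next and E7+NODAL+2DG and E7+ActivinA+2DG after them. The 4 groups without 2DG followed, E7+TGFb, E7, E7+NODAL and E7+ActivinA. E7+NODAL+2DG and E7+ActivinA+2DG did not differ beyond their spread, nor did E7+TGFb, E7 and E7+NODAL. E7+ActivinA lay below E7+NODAL by 227 normalised reads, more than the larger of their SDs (85.4).

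**Figure D2:**
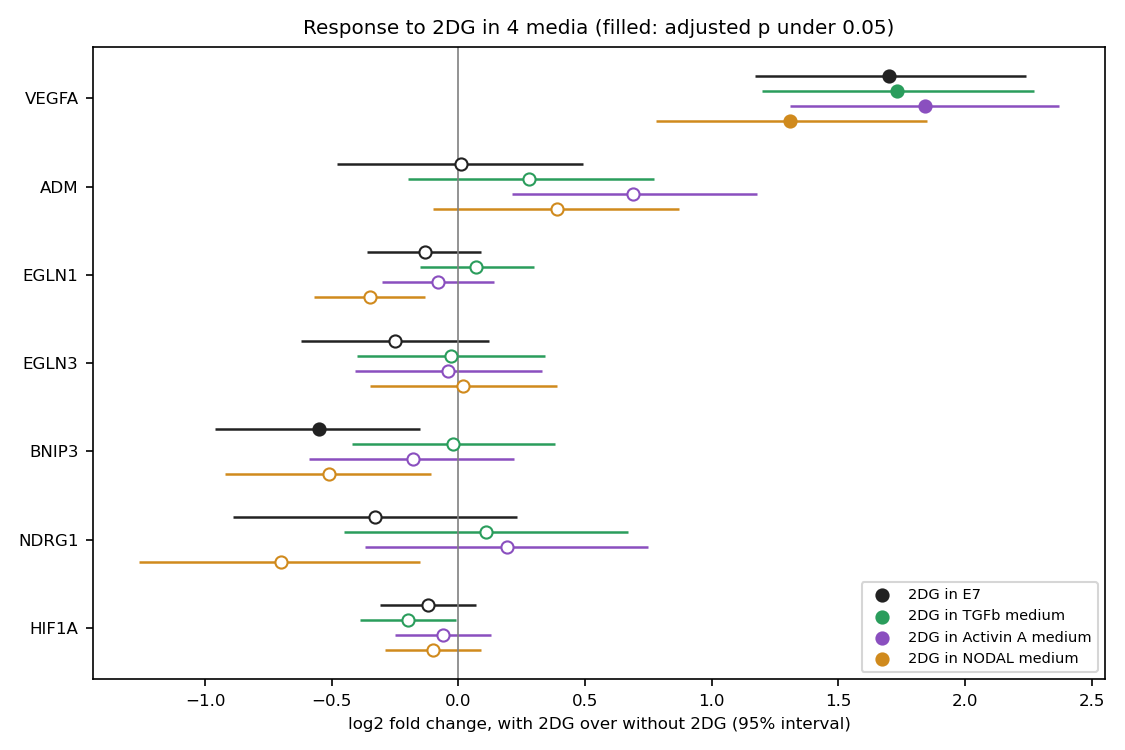
log2 fold change with 2DG over without 2DG (horizontal axis) of the 7 genes in the 4 media, with the 95% interval of the limma fit as bars. Filled points passed an adjusted p of 0.05: VEGFA in all 4 media, at 1.31 to 1.84, and BNIP3 in E7, at -0.55.

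Of the 7 genes, 2 were called for 2DG in E7, 1 higher and 1 lower, where 29.4% of all genes tested were called. In TGFb medium 1 of 7 was called (9.84% of all genes), in Activin A medium 1 of 7 (1.7%) and in NODAL medium 1 of 7 (5.88%). That gene was VEGFA each time. The median log2 fold change of the 7 genes lay between -0.13 and 0.07 in the 4 media, beside a median of 0 over all genes tested in each.

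HIF1A, the oxygen-regulated subunit (chromosome 14, 61695513 to 61748259, plus strand), ran between 4314 and 5682 normalised reads in the 16 libraries. With 2DG its range was 4314 to 5037, and without 2DG it was 4656 to 5682. Its log2 fold change with 2DG was -0.12 in E7, -0.20 in TGFb medium, -0.06 in Activin A medium and -0.10 in NODAL medium, and none passed the test (adjusted p = 0.32, 0.18, 0.71 and 0.57). The value in TGFb medium passed it without the 4 Activin A libraries (adjusted p = 0.024) or without replicate 1 or 2 of E7+ActivinA (adjusted p = 0.048 and 0.047). With NODAL and no 2DG, HIF1A had -0.16 (adjusted p = 0.21), which passed it without the 4 Activin A libraries (adjusted p = 0.043). Exons of HIF1A overlap those of HIF1A-AS1 on the other strand and of AL137129.1 on the same strand, and exons of VEGFA those of AL136131.3 on the other strand, all 3 not analysed here. The strand setting is not given in the sources used here, so reads of such partners cannot be told apart.

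EGLN1, the main prolyl hydroxylase acting on HIF1A (chromosome 1, 231363751 to 231425044, minus strand), had 756 and 629 normalised reads in E7+NODAL, against 533 and 508 in E7. The E7+NODAL libraries were its highest, and the other 14 lay between 469 and 557. The log2 fold change with NODAL was 0.40 (SE 0.10, adjusted p = 0.015). It was the only one of the 7 genes called for NODAL in E7, where 21.5% of all genes were called. The call was lost without replicate 2 of E7 (0.37, adjusted p = 0.11) or replicate 1 of E7+NODAL (0.27, adjusted p = 0.16). With 2DG the EGLN1 log2 fold change was -0.13 in E7, 0.07 in TGFb medium, -0.08 in Activin A medium and -0.35 in NODAL medium (adjusted p = 0.062 for the last). That last value passed the test without the 4 Activin A libraries (adjusted p = 0.013), without either replicate of E7+ActivinA (adjusted p = 0.024 each) and with equal library totals (-0.38, adjusted p = 0.046).

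EGLN3, a hydroxylase known as a strongly HIF-induced gene (chromosome 14, 33924231 to 34462774, minus strand), ran between 232 and 401 normalised reads. Its log2 fold changes with 2DG were -0.25 in E7, -0.03 in TGFb medium, -0.04 in Activin A medium and 0.02 in NODAL medium, with adjusted p between 0.29 and 0.96. The libraries with 2DG ran from 232 to 325 and those without from 263 to 401, and the ranges overlapped. The intervals allow a fall of up to 0.62 on the log2 scale in E7.

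ADM, which encodes the vasodilator peptide adrenomedullin (chromosome 11, 10304680 to 10307397, plus strand), had 551 and 593 normalised reads in E7+2DG, against 501 and 646 in E7. It had 440 and 719 in E7+ActivinA+2DG, against 366 and 330 in E7+ActivinA. The 2 groups overlapped in E7 and were apart in Activin A medium. ADM had 579 and 550 in E7+TGFb+2DG, against 477 and 451 in E7+TGFb. It had 499 and 464 in E7+NODAL+2DG, against 468 and 289 in E7+NODAL, where the groups overlapped. Its log2 fold change with 2DG was 0.01 in E7 (95% interval -0.48 to 0.49), 0.28 in TGFb medium, 0.69 in Activin A medium and 0.39 in NODAL medium, and none passed the test. The value in Activin A medium (adjusted p = 0.13) became 1.05 and passed it without replicate 1 of E7+ActivinA+2DG (adjusted p = 0.015), and DESeq2 called it (adjusted p = 0.043). Without 2DG, ADM had log2 fold changes of -0.71 with Activin A (adjusted p = 0.062) and -0.63 with NODAL (adjusted p = 0.061). DESeq2 called both (adjusted p = 0.023 and 0.046), and each passed the limma test once replicate 1 or 2 of E7+ActivinA+2DG was left out (adjusted p = 0.029 to 0.031). The Activin A value also passed it without replicate 1 of E7+ActivinA (-0.79, adjusted p = 0.024) or either replicate of E7+NODAL (adjusted p = 0.039 each). The NODAL value did so without replicate 1 of E7+NODAL (-0.97, adjusted p = 0.028), either replicate of E7+ActivinA (adjusted p = 0.024 and 0.023) or all 4 Activin A libraries (adjusted p = 0.0042).

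BNIP3, a mitochondrial protein that recruits the autophagy machinery (chromosome 10, 131966455 to 131982013, minus strand), had 1327 and 1430 normalised reads in E7+2DG, against 1877 and 2181 in E7. It had 1408 and 1446 in E7+TGFb+2DG, against 1429 and 1465 in E7+TGFb. In E7 the 2 groups were apart, and in TGFb medium they overlapped. It had 1543 and 1321 in E7+ActivinA+2DG, against 2054 and 1281 in E7+ActivinA. It had 1646 and 1664 in E7+NODAL+2DG, against 2803 and 1985 in E7+NODAL. Of the libraries without 2DG, those of E7+ActivinA and E7+NODAL differed by 14 and 12 times the counting error.

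The log2 fold change of BNIP3 with 2DG was -0.55 in E7 (SE 0.19, adjusted p = 0.04), -0.02 in TGFb medium, -0.18 in Activin A medium and -0.51 in NODAL medium (adjusted p = 0.13). The call in E7 was kept by edgeR and DESeq2, with TMM factors and without the 4 Activin A libraries. It was lost in limma when libraries were scaled to the same total (adjusted p = 0.054). It was also lost without either replicate of E7 (adjusted p = 0.054 and 0.24), of E7+2DG (0.18 and 0.097), or of E7+TGFb, E7+TGFb+2DG and E7+NODAL+2DG (0.056 in each case). The value in NODAL medium passed the test without the 4 Activin A libraries (adjusted p = 0.0034) or either replicate of E7+ActivinA (adjusted p = 0.01 and 0.0096), and the value in Activin A medium became -0.52 without replicate 2 of E7+ActivinA (adjusted p = 0.012). With Activin A and no 2DG, BNIP3 had -0.32 (adjusted p = 0.33), and -0.66 without replicate 1 of E7+ActivinA (adjusted p = 0.0037). The BNIP3 values are uncertain to the extent that near-identical copies share its reads. Of these, BNIP3P17 stood at 7.63% of the BNIP3 mean, and BNIP3P1, BNIP3P9 and BNIP3P16 at 0.67%, 1.12% and 0.141%.

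NDRG1, a stress-induced gene linked to growth arrest and differentiation (chromosome 8, 133237171 to 133302022, minus strand), had the lowest level per length of the 7. It had 79.3 and 124 normalised reads in E7+ActivinA+2DG, against 51.2 and 45.7 in E7+2DG. The log2 fold change with Activin A under 2DG was 1.02 (SE 0.26, adjusted p = 0.028), and 1 of 7 genes was called in that comparison, where 7.52% of all genes were. The call was lost without replicate 1 or 2 of E7+2DG (adjusted p = 0.098 and 0.18) or replicate 2 of E7+ActivinA+2DG (0.70, adjusted p = 0.18). NDRG1 had 70.4 and 106 in E7+ActivinA, against 55.5 and 67 in E7, with a log2 fold change of 0.50 (adjusted p = 0.27). Its log2 fold change with 2DG ran from -0.70 in NODAL medium (adjusted p = 0.13) to 0.19 in Activin A medium (adjusted p = 0.69), and the NODAL value passed the test without the 4 Activin A libraries (adjusted p = 0.031).

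Among the 7 genes the ligands gave 2 calls, EGLN1 with NODAL and NDRG1 with Activin A under 2DG. VEGFA had a log2 fold change of 0.05 with TGFb, -0.70 with Activin A (adjusted p = 0.096) and -0.01 with NODAL, all in media without 2DG and against the same E7 libraries. The Activin A value passed the test without replicate 1 or 2 of E7+ActivinA+2DG (adjusted p = 0.004 and 0.0041) and without replicate 2 of E7+ActivinA (-0.92, adjusted p = 0.021). For Activin A in E7, 0 of 7 genes were called by limma, with 2 at an unadjusted p under 0.05, 0 by edgeR and 1 by DESeq2, where 10% of all genes were called. For TGFb in E7, 0 of 7 were called by limma, with 1 at an unadjusted p under 0.05 and 0 by edgeR or DESeq2, beside 0% of all genes (3771 at an unadjusted p under 0.05, 0 by edgeR, 213 by DESeq2). BNIP3 had -0.48 there (adjusted p = 0.17), which passed the test without the 4 Activin A libraries (adjusted p = 0.0042) or either replicate of E7+ActivinA (adjusted p = 0.012 and 0.011).

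Under 2DG, VEGFA had log2 fold changes of 0.08 with TGFb, -0.56 with Activin A (adjusted p = 0.24) and -0.40 with NODAL (adjusted p = 0.41), against the same E7+2DG libraries. The NODAL value passed the test without the 4 Activin A libraries (adjusted p = 0.0019), and the Activin A value without replicate 2 of E7+ActivinA+2DG (-1.12, adjusted p = 0.00071), while without its replicate 1 the Activin A value was 0.00. For TGFb with 2DG, the count was 0 of 7 by limma, 0 at an unadjusted p under 0.05 and 0 by edgeR or DESeq2, beside 0% of all genes (273 at an unadjusted p under 0.05, 0 by edgeR, 0 by DESeq2). For NODAL with 2DG the counts were also 0 of 7 by limma, 0 at an unadjusted p under 0.05 and 0 by edgeR or DESeq2, beside 0.634% of all genes. The interactions had 0 of 7 genes called by limma, edgeR and DESeq2, beside 0% of all genes for TGFb (2023 at an unadjusted p under 0.05, 0 by edgeR, 0 by DESeq2), 0.0419% for Activin A and 1.87% for NODAL. At an unadjusted p under 0.05 there was 1 gene for Activin A, which was ADM at 0.69, and 0 for TGFb and for NODAL. The BNIP3 term passed the limma test for TGFb without the 4 Activin A libraries (0.53, adjusted p = 0.032), where 2457 genes were called in all. For Activin A the BNIP3 term was 0.37, and 0.71 without replicate 1 of E7+ActivinA.

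Genes around the 7 were read from pathway lists, by the number called and the 3 called genes with the largest change. When libraries were left out, the number called over all genes changed too, as given in the closing section. List counts under such settings are to be read beside it. Among the other parts of the HIF pathway 4 of 14 rose and 4 fell with 2DG in E7, where 29.4% of all genes were called. The rises included CREBBP, a coactivator with 2347 ± 247 normalised reads in E7+2DG and 764 ± 228 in E7 (SD, n = 2; log2 1.65, adjusted p = 0.0017), EP300, its relative (log2 1.55, adjusted p = 0.0056), and the membrane-bound hydroxylase P4HTM (1.04). In the same contrast the trend of log2 fold change with exonic length had the rho of 0.31 given above, and the difference between the 2 E7 libraries had a rho of 0.35, so the part of length in the CREBBP and EP300 values was not tested. In TGFb medium 1 of 14 rose (P4HTM, 0.84) and 1 fell (CUL2, -0.35), in Activin A medium 1 rose (P4HTM, 0.85) and in NODAL medium 0 were called by limma, edgeR or DESeq2 or at an unadjusted p under 0.05. CREBBP had 0.37, 0.81 and 0.14 in those 3 media. Without the 4 Activin A libraries 4 rose and 3 fell in TGFb medium, and P4HTM in Activin A medium was lost without replicate 2 of E7+ActivinA+2DG, where 0 were called.

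Of 32 tested HIF targets outside glycolysis, 8 rose and 4 fell with 2DG in E7, 6 rose and 2 fell in TGFb medium, 6 rose and 1 fell in Activin A medium, and 4 rose and 6 fell in NODAL medium. Of all genes tested, 29.4%, 9.84%, 1.7% and 5.88% were called in these 4 contrasts. The median log2 fold change was 0.08, 0.03, 0.09 and -0.06, beside 0 over all genes each time. The largest rises in E7 were those of DDIT4, an inhibitor of mTOR signalling (3.13), VLDLR, a lipoprotein receptor (2.25), and STC2, a secreted glycoprotein (2.17). All 3 also stand in the list of ATF4 stress response genes. DDIT4 had 3.90 in TGFb medium, 2.86 in Activin A medium and 1.2 in NODAL medium, where it did not pass (adjusted p = 0.073). HMOX1, which breaks down heme, rose by 1.41 in E7, 1.79 in TGFb medium, 2.18 in Activin A medium and 1.44 in NODAL medium. Without the 4 Activin A libraries 10 rose and 5 fell in TGFb medium. In Activin A medium 10 rose and 1 fell without replicate 1 of E7+ActivinA+2DG, and 4 rose and 0 fell without its replicate 2.

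Of 21 tested HIF targets of glycolysis, 4 rose and 4 fell with 2DG in E7, where 29.4% of all genes were called, 2433 higher and 2480 lower. LDHA, which makes lactate, fell, with 7670 ± 450 normalised reads in E7+2DG and 13182 ± 361 in E7 (SD, n = 2; log2 -0.78, adjusted p = 0.0018). The enolase gene ENO2 was higher (0.75) and the aldolase gene ALDOC lower (-0.67). In TGFb medium 1 rose and 2 fell (9.84% of all genes called). In Activin A medium 1 rose (1.7%), the glucose transporter gene SLC2A1 (1.00). In NODAL medium 0 rose and 3 fell (5.88%), led by the lactate transporter gene SLC16A3 (-1.15). Mean normalised reads of SLC2A1 were also higher with 2DG in E7 (3893 against 2504), TGFb (3741 against 2602) and NODAL medium (3427 against 2551). Those of SLC16A3 were also lower in E7 (68.2 against 98.7), TGFb (55.2 against 82.7) and Activin A medium (99.4 against 182). Those of LDHA were also lower in TGFb (7738 against 11111), Activin A (8984 against 11468) and NODAL medium (8058 against 11175). The counts were 6 and 7 in E7, 2 and 5 in TGFb medium and 3 and 8 in NODAL medium without the 4 Activin A libraries. In Activin A medium they were 2 and 5 without replicate 1 of E7+ActivinA+2DG and 0 and 0 without its replicate 2.

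Partners of VEGFA, ADM, BNIP3 and NDRG1 were read in the same way. Of 7 VEGF ligands and receptors, 3 rose with 2DG in E7: the receptor genes KDR (2588 ± 150 normalised reads in E7+2DG and 1452 ± 220 in E7, SD, n = 2; log2 0.84, adjusted p = 0.0074), FLT1 (0.67) and FLT4 (0.41). DESeq2 called 2 of the 7 there, and 29.4% of all genes were called by limma. None of the 7 was called by limma in the other 3 media, whereas an unadjusted p under 0.05 was reached by 1, 0 and 2 genes in TGFb, Activin A and NODAL medium, 0 by edgeR and 1, 0 and 0 by DESeq2. Without the 4 Activin A libraries, limma called 2 higher in TGFb medium and 1 higher and 2 lower in NODAL medium. The summed endothelial markers were 82.6 and 111 normalised reads in E7+2DG and 117.7 and 137.9 in E7, below the level of either receptor gene in each library.

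ADM2, a relative of ADM, was higher with 2DG in all 4 media, by 2.65 on the log2 scale in E7, 2.24 in TGFb medium, 2.02 in Activin A medium and 1.5 in NODAL medium. It had 529 ± 70.2 normalised reads in E7+2DG and 83.1 ± 8.42 in E7 (SD, n = 2). The receptor gene CALCRL had 55.7 ± 10.4 normalised reads in E7+2DG and 7.89 ± 0.325 in E7 (SD, n = 2) and was higher in E7 (2.66) and TGFb medium (2.28), so that 2 of 6 tested genes of the adrenomedullin system rose in each of those media and 1 in each of the others. The share of all genes called was 29.4% in E7, 9.84% in TGFb medium, 1.7% in Activin A medium and 5.88% in NODAL medium. Without replicate 1 of E7+ActivinA+2DG, 3 rose in Activin A medium.

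BNIP3L, the closest relative of BNIP3 and a mitophagy receptor, fell with 2DG in all 4 media. It had 546 ± 0.211 normalised reads in E7+2DG and 873 ± 86.9 in E7 (SD, n = 2; log2 -0.67, adjusted p = 0.0024), and its log2 fold change was -0.46 in TGFb medium, -0.55 in Activin A medium (adjusted p = 0.047) and -0.68 in NODAL medium. PINK1, a kinase that marks damaged mitochondria, fell by 0.78 in E7, 0.94 in TGFb medium and 1.03 in NODAL medium, and had -0.14 in Activin A medium. SQSTM1, an autophagy adaptor, was higher by 0.63, 0.73 and 0.64 in the same 3 media. In Activin A medium it had 1447 ± 339 normalised reads with 2DG and 1015 ± 61.8 without (SD, n = 2), and limma did not call it. In all, 1 of 9 genes of mitophagy rose and 4 fell in E7, 1 and 3 in TGFb medium, 0 and 1 in Activin A medium, and 1 and 2 in NODAL medium, beside 29.4%, 9.84%, 1.7% and 5.88% of all genes called. In Activin A medium the BNIP3L call was lost without replicate 2 of E7+ActivinA+2DG, with 0 genes called, and 1 rose and 1 fell without replicate 1. In NODAL medium 2 rose and 5 fell without the 4 Activin A libraries. Of 3 other NDRG genes, NDRG4 fell in E7 (-0.51) and in NODAL medium (-0.71) and had -0.42 in TGFb medium (adjusted p = 0.068) and -0.34 in Activin A medium (adjusted p = 0.19).

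Of 9 other angiogenic factors, ANGPT1, a ligand that steadies vessels, and PDGFB, which recruits the cells around them, fell with 2DG in 3 media, where 29.4% (E7), 9.84% (TGFb medium) and 5.88% (NODAL medium) of all genes were called. ANGPT1 had -1.12 in E7, -1.59 in TGFb medium and -1.34 in NODAL medium, and PDGFB had -0.83, -0.56 and -1.52. In Activin A medium they had 0.07 and -0.24 and did not pass. FGF2, a growth factor that is also a component of the medium, rose in E7 (0.52). Leaving out the 4 Activin A libraries, 2 rose and 3 fell in E7, 3 and 4 in TGFb medium and 2 and 3 in NODAL medium.

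With Activin A the same lists held a few larger changes, in media without 2DG and with it, against E7 and E7+2DG. ANGPT1 was higher by 2.56 without 2DG (551 ± 102 normalised reads in E7+ActivinA and 91.6 ± 1.8 in E7, SD, n = 2) and by 3.75 with it. PINK1 was higher by 1.75 without 2DG and 2.39 with it, and the VEGF co-receptor gene NRP2 by 1.2 and 1.01. EPAS1, the second oxygen-regulated subunit, lay at 29.1 to 66.9 normalised reads in E7+ActivinA and at 88.3 to 99.6 in E7, with a log2 fold change of -1.07 that limma called (adjusted p = 0.039) and edgeR, which called 0 of the 14 genes, did not. It had -0.29 with 2DG (adjusted p = 0.73). With NODAL and no 2DG, SLC16A3 (1.13), FLT4 (0.82), PINK1 (0.85) and HIF3A (0.80) were higher.

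**Figure D3:**
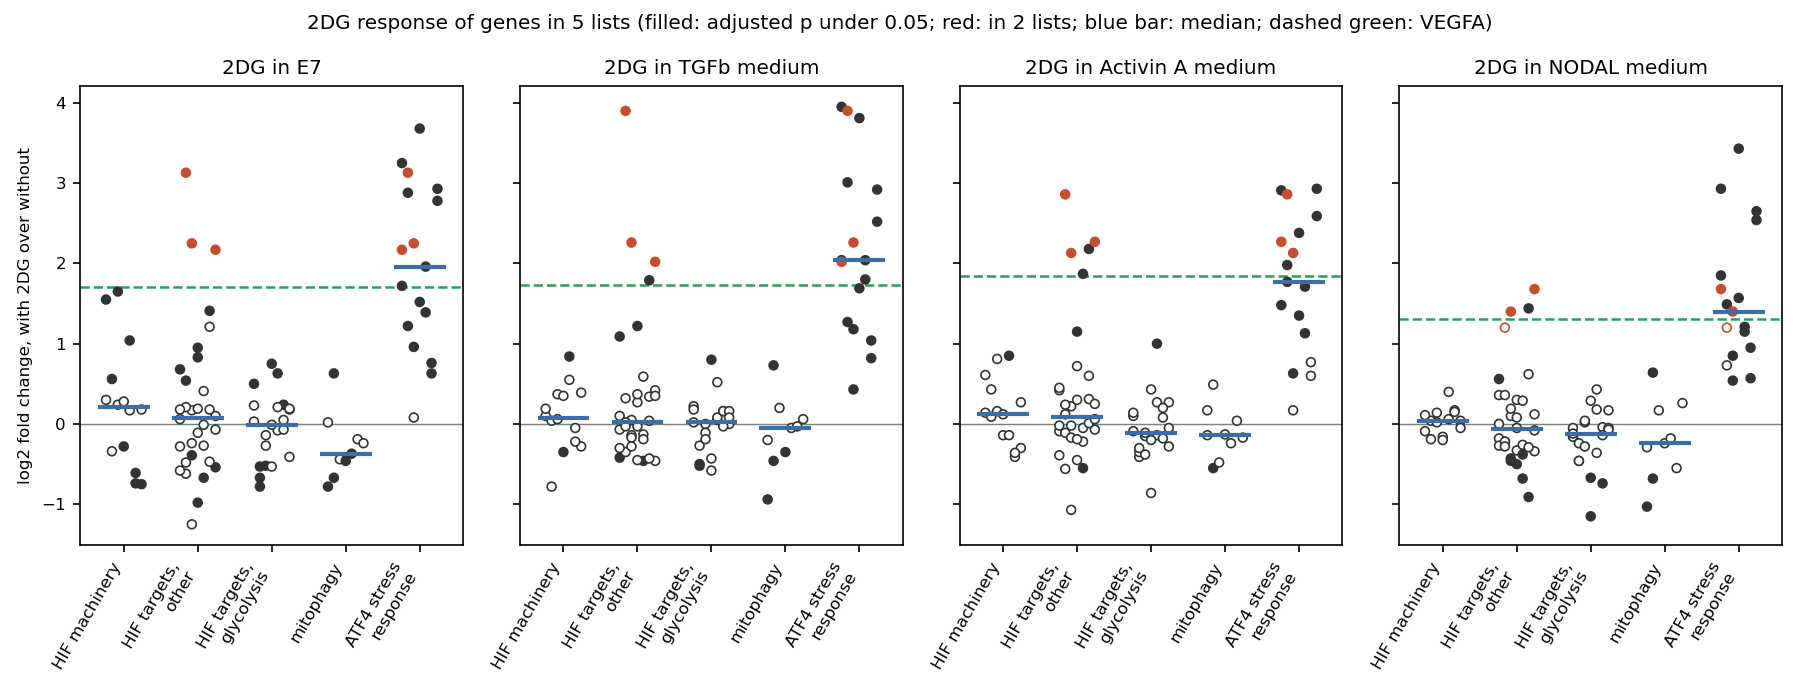
log2 fold change with 2DG over without 2DG (vertical axis) of the tested genes of 5 lists in the 4 media, with filled points at an adjusted p under 0.05, blue bars at the list median and a dashed green line at VEGFA. List medians lie near 0 for the HIF lists (-0.12 to 0.21) and at 1.40 to 2.04 for the ATF4 list, and the highest point of the HIF targets outside glycolysis is in each medium a red gene shared with the ATF4 list (DDIT4, or STC2 in NODAL medium).

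The ATF4 stress response, in which ATF4 raises genes of amino acid supply and stress, was set beside VEGFA. Of 17 tested genes 16 rose and 0 fell with 2DG in E7 (median log2 fold change 1.96), 17 and 0 in TGFb medium (2.04), 14 and 0 in Activin A medium (1.77) and 15 and 0 in NODAL medium (1.40). The shares of all genes called were 29.4%, 9.84%, 1.7% and 5.88%. The largest values in E7 were those of ATF5 (3.68), DDIT3 (3.25) and DDIT4 (3.13). ATF4 itself had 0.08 in E7 (adjusted p = 0.64) and 0.17 in Activin A medium (adjusted p = 0.43), and was higher in TGFb medium (0.43, adjusted p = 0.038) and NODAL medium (0.54, adjusted p = 0.02). In Activin A medium 11 rose without replicate 2 of E7+ActivinA+2DG and 16 without its replicate 1. The list was drawn up with earlier results of these data known, so its count is no independent evidence of its direction.

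Some of these genes hold the letters TGATGNAA, the composite element bound by C/EBP and ATF4, before their start. Capitals mark it in the stretches below, read on the strand of the gene, with CHAC1 holding it on the opposite strand.
ASNS: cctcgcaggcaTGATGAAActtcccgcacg
CEBPG: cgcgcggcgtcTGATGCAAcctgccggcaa
CHAC1: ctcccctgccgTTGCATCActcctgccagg
ATF3: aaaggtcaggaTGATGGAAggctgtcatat
The ASNS stretch is chr7:97872458-97872487 (minus strand), that of CEBPG chr19:33374060-33374089 (plus), that of CHAC1 chr15:40953251-40953280 (plus) and that of ATF3 chr1:212565205-212565234 (plus), on GRCh38.p14. The letters stood in 4 of 28 windows of the ATF4 list (14.3%) and in 3.14% of all 35116 windows. They stood in 0 of 38 windows of the HIF targets outside glycolysis and in 2 of 40 of the HIF targets of glycolysis (5.0%, HK1 only). The HIF core ACGTG stood in 3 of the 28 windows of the ATF4 list (10.7%), in 19 of the 38 and in 17 of the 40 (42.5%), beside 18.5% of all windows. The other core, GCGTG, stood in 15 of the 28 (53.6%), in 25 of the 38 (65.8%) and in 15 of the 40 (37.5%), beside 32.2% of all windows. The 28 windows belong to 16 genes, the 38 to 25 and the 40 to 20, and windows of the same gene can overlap. The 3 ACGTG windows of the ATF4 list belong to ATF4 and DDIT4 only. These are therefore shares of windows, not of genes.

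**Figure D4:**
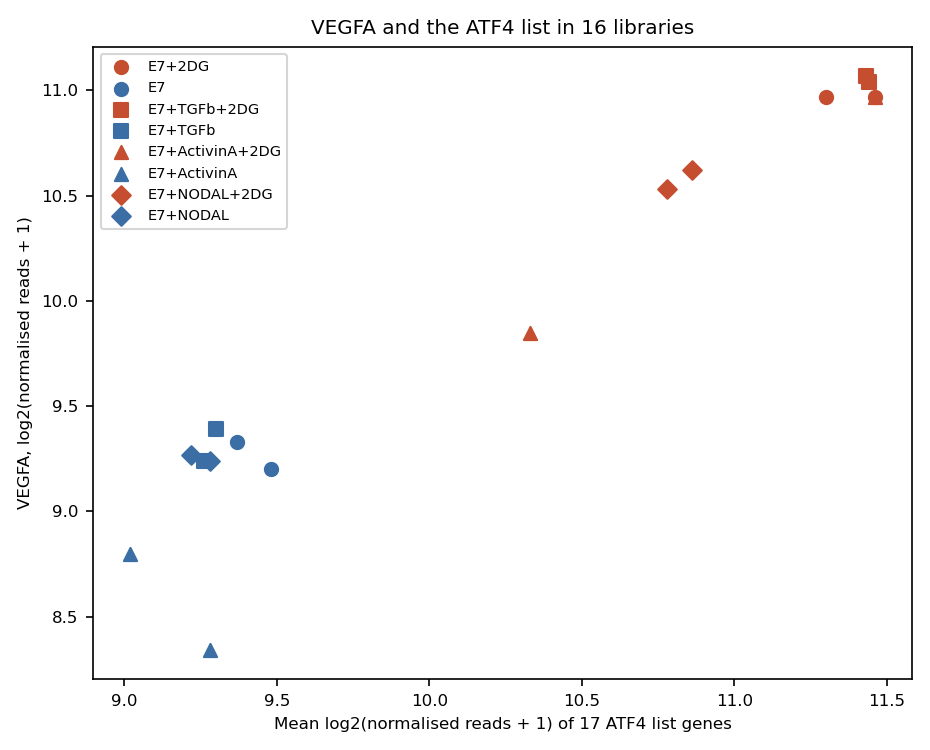
VEGFA (vertical axis) against the mean of 17 ATF4 list genes (horizontal axis), both as log2(normalised reads + 1), 1 point per library, with 2DG libraries in red. Red points lie at 9.85 to 11.07 for VEGFA and blue points at 8.34 to 9.39, and replicate 1 of E7+ActivinA+2DG stands between the clusters at 10.33 and 9.85, while its replicate 2 covers replicate 2 of E7+2DG.

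Among the 8 libraries with 2DG, VEGFA and the ATF4 list were lowest in the same one, replicate 1 of E7+ActivinA+2DG. In E7+ActivinA+2DG the list mean was 10.33 in replicate 1 and 11.46 in replicate 2, on the log2 scale, and VEGFA was 9.85 and 10.97. In E7+NODAL+2DG, the list stood at 10.86 and 10.78 and VEGFA at 10.62 and 10.53, below the E7+TGFb+2DG libraries with 11.44 and 11.43 for the list and 11.04 and 11.07 for VEGFA.

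The genes whose log2 levels were most like that of VEGFA over the 16 libraries, among 10707 genes with a mean of at least 100, were STC2 and FAM129A (Pearson's r = 0.99 each), then CTH, SEC63, HRK, MOCOS, SLC7A11 and AARS (0.98 each). STC2 had 3756 and 4011 normalised reads in E7+2DG, against 929 and 797 in E7. It had 1659 and 4151 in E7+ActivinA+2DG, against 482 and 608 in E7+ActivinA, with replicate 1 low as for VEGFA. The libraries fall into clusters with and without 2DG, so r was also taken within each. It ran from 0.95 to 0.99 in the 8 libraries with 2DG and from 0.76 to 0.95 in the 8 without. The 8 genes were picked for their r over these same libraries, so neither the values within clusters nor their levels with 2DG are evidence beyond that choice. CTH makes cysteine, SLC7A11 imports cystine, AARS charges alanine to its tRNA, SEC63 serves protein import into the endoplasmic reticulum, and HRK is a promoter of apoptosis.

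The other 6 genes had different nearest genes. They were ANXA3, ISCA1 and KCMF1 for ADM (r = 0.89 to 0.90), TNIP1, AGAP3 and GPC2 for EGLN1 (0.86 to 0.88), and YWHAH, ZNF706 and ADPRHL2 for EGLN3 (0.85 to 0.87). For BNIP3 they were RMI2, F11R and PTGES3 (0.93 to 0.94), for NDRG1 TIMP3, OGFRL1 and DPY19L1 (0.88 to 0.89), and for HIF1A KTN1, EXOC5 and PLK4 (0.95 to 0.97). Among the 7 genes the highest r was that of EGLN1 and BNIP3 (0.76), then that of VEGFA and ADM (0.65), while VEGFA had -0.52 with BNIP3 and -0.47 with HIF1A. These values describe 16 libraries that share groups and are not tests.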

How the data were processed

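Polyadenylated RNA of H1 cells was sequenced paired-end on a NextSeq instrument, per the labels' protocols. hg38, DESeq2 1.26.0, featureCounts 1.5.3, STAR and Trimmomatic 0.36 appear in the submitters' processing notes, and the annotation release and strand setting are not given in the sources used here. The authors deposited a normalised signal per gene, which proved to be reads divided by 1 factor per library. All values (100%) came out whole in units of 1 read, with a tolerance of 1e-06, which gave back the reads. Their median-of-ratios factors equalled the divisors. Each listed gene had at least 1 read in every library.

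Testing was restricted to genes that reached 10 normalised reads in 2 or more libraries. limma 3.58.1 in R 4.3.3 was run with an intensity trend on log2(value + 1), so fold changes of low genes are understated. One fit of 8 group means to the 16 libraries gave 13 two-sided contrasts, with Benjamini-Hochberg adjustment over all 16714 genes within each and a threshold of 0.05. The procedure was tested on simulated data. Alternatives were TMM factors, equal totals, no filter, a pseudocount of 8, the replicate number as a block, the 4 Activin A libraries left out, each library left out in turn, edgeR 4.0.16, and DESeq2 1.42.0, both on the reads so recovered. Where a left-out library leaves a group with 1, that library is assumed to vary like the other groups. Whether replicate numbers pair the libraries is not in the labels, and the main fit used no block. Replicate differences correlated above 0.1 in 3 of 28 pairs of groups (range -0.39 to 0.24), which does not settle it.

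The 7 genes and all lists (9 pathway and 3 marker lists) were chosen with earlier results of these data known. The text names the 7 genes anywhere, up to 3 called genes of a list per contrast with the largest absolute change, with their values in other media, and the genes most like each of the 7 (8 for VEGFA, 3 for each other). ATF4 in E7 and Activin A medium and the BNIP3 pseudogenes were named after their values were seen. A gene that met this rule is not reported here. Positions and exonic lengths came from GENCODE 29 and sequences from RefSeq (GRCh38.p14). Counting error is that of the reads only. Figures used Python 3.11.15 and matplotlib 3.10.9.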

Additional observations from a re-analysis of the deposited data

How the results depend on the processing

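For the 7 genes, 2156 values were recomputed under alternatives, of which 20 lost and 40 gained a call and 0 called values changed sign. With libraries scaled to the same total, 1 gene in place of 2 was called for 2DG in E7 and 2 in place of 1 in NODAL medium. DESeq2 called 2 for 2DG in Activin A medium, 1 for Activin A in E7 and 2 for NODAL in E7. Without the 4 Activin A libraries the numbers called were 2 for 2DG in TGFb medium, 4 for 2DG in NODAL medium, 1 for TGFb in E7, 3 for NODAL in E7, 1 for NODAL with 2DG and 1 each for the TGFb and NODAL interactions. Leaving out 1 library at a time gave 1 to 2 genes for 2DG in E7, in TGFb medium and in Activin A medium, 0 to 3 in NODAL medium, 0 to 1 for TGFb in E7, 0 to 2 for Activin A in E7 and for NODAL in E7, 0 to 1 for Activin A with 2DG and for the Activin A interaction, and 0 for the other 4 contrasts. Without replicate 1 or 2 of E7+ActivinA the number called over all genes also rose for 2DG in E7, TGFb and NODAL medium. It rose too for each ligand in E7 and for each interaction, and calls gained by the 7 genes there are to be read beside that rise. Where the left-out libraries stood in no group of a contrast, its fold changes stayed the same. Only the spread shared by the groups, and with it the adjusted p, was then estimated anew. What made that spread change was not tested. Over all genes, the count without the 4 Activin A libraries was 7590 in place of 4913 for 2DG in E7, 4109 in place of 1644 in TGFb medium, 3388 in place of 982 in NODAL medium, 4381 in place of 0 for TGFb in E7, 6479 in place of 3601 for NODAL in E7, 2952 in place of 106 for NODAL with 2DG, 2457 in place of 0 for the TGFb interaction and 4800 in place of 313 for the NODAL interaction. For 2DG in Activin A medium it was 284, and 5565 without replicate 2 of E7+ActivinA, 1621 without replicate 1 and 46 without replicate 2 of E7+ActivinA+2DG, and 602 by DESeq2. DESeq2 called 278 genes for NODAL with 2DG, 44 for the Activin A interaction in place of 7 (11 with TMM factors) and 1684 for the NODAL interaction.

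The fit with the replicate number as a block called 2 of the 7 genes for 2DG in E7 and 1 in each other medium, as without it, and changed no call of the 7. Over all genes it called 0 in place of 313 for the NODAL interaction. TMM factors, no filter, a pseudocount of 8 and edgeR left all counts of called genes among the 7 as they were. List counts without the Activin A libraries or without single E7+ActivinA+2DG libraries were added after seeing the data. With 2 libraries a group, the BNIP3 call in E7 changed with single libraries, and counting error was largest for NDRG1, where it came to 0.21 to 0.31 on the log2 scale between replicates.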
